A study of Oryctolagus cuniculus with 12 samples.

Results

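The 6 genes described here belong to the collagen and elastic fibre scaffold of the artery wall and were measured in the rabbit basilar artery, the vessel along the brain stem: COL1A1, COL1A2, COL3A1, FBN1, LOXL1 and LOXL2. They were taken as all probes that the array's gene names, accessions or descriptions assign to these 6 genes, which gave 24 of 43623 non-control probes: 1 for COL1A1, 11 for COL1A2, 6 for COL3A1, 3 for FBN1, 2 for LOXL1 and 1 for LOXL2. The 12 samples form 4 groups of 3: controls, which the series calls day 0, and arteries labelled SAH at day 3, day 5 or day 7, where SAH stands for subarachnoid hemorrhage, bleeding into the space between brain and arachnoid membrane, here produced experimentally. Strain, age, the way the bleed was made and whether the controls had a sham procedure are not given in the sources used here. Whether the 3 samples of a group came from different animals is not stated, so the p-values rest on a spread that could be technical.

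COL1A1 and COL1A2 encode the chains of type I collagen, and COL3A1 the chain of type III collagen; these fibrillar collagens form the triple helices that bundle into the load-bearing fibrils of the artery wall. FBN1 encodes fibrillin 1, which assembles into microfibrils that scaffold elastin and hold latent TGF-beta. LOXL1 and LOXL2 encode copper-dependent lysyl oxidase-like enzymes, which oxidise lysines so that collagen and elastin become cross-linked; LOXL1 is known for elastic fibre upkeep and LOXL2 for cross-linking of fibrillar and basement membrane collagens.

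The probes are 60-base oligonucleotides. Those shown cover each of the 6 genes, the overlapping COL1A2 set and the triplet repeat; the COL1A2 probe A_04_P029967 and the FBN1 probe A_04_P007976, whose values are given further on, are named only. All are read 5′ to 3′ from the array's own sequence column. In the COL1A2 probe A_04_P033287 and the COL3A1 probe A_04_P006131 the capitals mark GGN, the glycine codon, at the 9-base spacing of the collagen triplet repeat. In A_04_P033292 they mark the 56 bases shared by 5 COL1A2 probes that are shifted by 1 base from each other. The others have no capitals.
COL1A1 A_04_P003721: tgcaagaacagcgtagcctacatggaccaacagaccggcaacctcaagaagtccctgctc
COL1A2 A_04_P005106: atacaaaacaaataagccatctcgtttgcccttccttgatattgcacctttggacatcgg
COL1A2 A_04_P033287: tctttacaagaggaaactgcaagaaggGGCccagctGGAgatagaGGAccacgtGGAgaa
COL1A2 A_04_P033292: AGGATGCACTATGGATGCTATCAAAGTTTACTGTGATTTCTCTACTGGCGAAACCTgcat
COL3A1 A_04_P099602: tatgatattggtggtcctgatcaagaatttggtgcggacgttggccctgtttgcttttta
COL3A1 A_04_P006131: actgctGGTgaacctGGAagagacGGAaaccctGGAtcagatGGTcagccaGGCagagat
FBN1 A_04_P096262: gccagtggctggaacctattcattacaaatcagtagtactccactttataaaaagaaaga
LOXL1 A_04_P042142: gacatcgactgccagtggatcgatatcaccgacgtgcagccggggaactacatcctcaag
LOXL2 A_04_P098652: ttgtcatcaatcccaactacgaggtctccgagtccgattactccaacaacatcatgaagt
At least 4 GGN in a row at this spacing, on the probe strand as printed, were found in 45 of 43623 probes (0.103%), and these 2 were the only ones among the 24. A match describes the letters of the probe and says nothing about the transcript beyond them.

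All 6 genes were higher on day 3 than in the controls, and the increase passed the test for each of them. Values are log2 signals after subtraction of the array's 75th percentile, and a gene is represented by its tested probe with the highest mean over the 12 arrays. A change was called at a limma Benjamini-Hochberg adjusted p below 0.05 over all 26434 tested probes. On this rule 6 of 6 genes were called higher on day 3, but 2 of 6 on day 5 and 3 of 6 on day 7, and none (0) was called lower on any day. Among all 7329 genes tested, 4.84% were called higher on day 3, 1.9% on day 5 and 1.96% on day 7. The median log2 change of the 6 genes was 1.08 on day 3, 0.90 on day 5 and 0.99 on day 7, while that of all tested genes lay at -0.0054, 0.0224 and 0.0344. Without all 4 arrays of replicate 3, the day 3 count was 4 of 6, as it was with quantile normalization and with the authors' own value table. Quantile normalization and the authors' table gave nearly the same values and are not separate evidence (COL3A1 on day 3: 0.81 in both, limma adjusted p = 0.0844 and 0.0858). The day 3 count was also sensitive to single arrays: 2 of 6 without day 3 replicate 3, and 3 of 6 without control replicate 1, control replicate 3, day 3 replicate 1 or day 3 replicate 2.

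**Figure D1:**
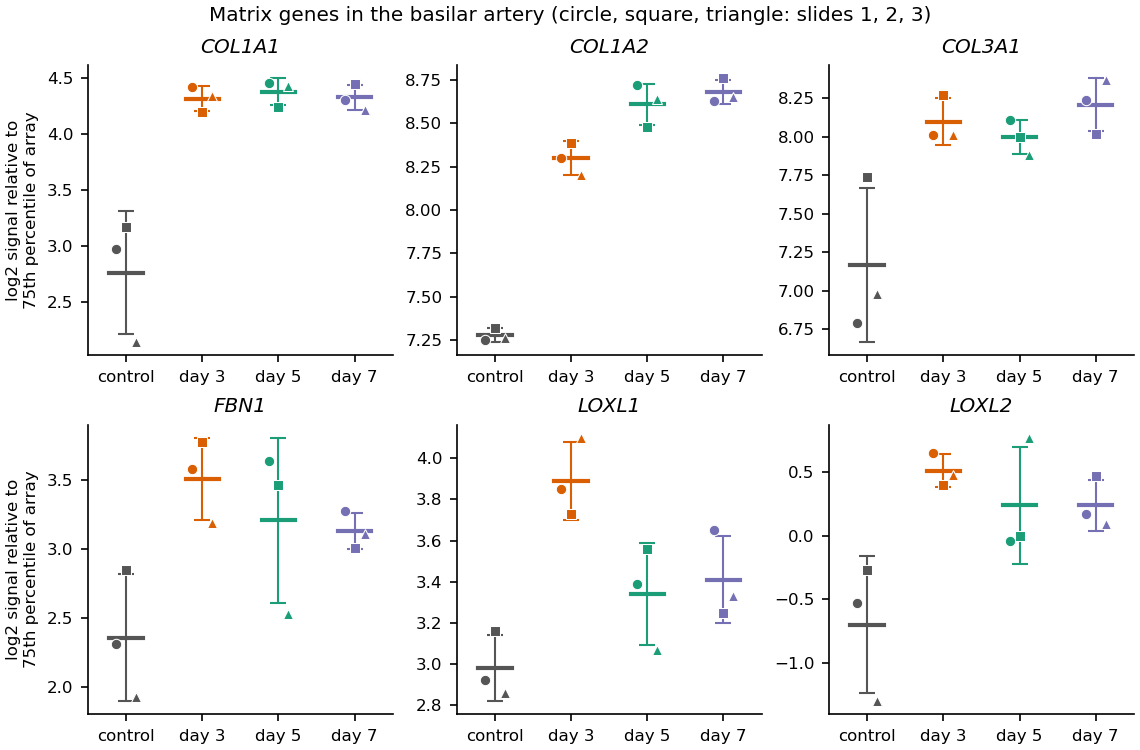
Log2 signal minus that of the array's 75th percentile for the 6 genes in controls and on days 3, 5 and 7. Circles, squares and triangles are replicates (slides) 1, 2 and 3, thick bars are means and thin bars SD (n = 3); all day 3 points lie above all control points in every panel, and the vertical scales differ between genes.

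The arrays carry a few features that touch these results. The 75th percentile of the signal was 127 to 191 units, 58.2% to 64.0% of non-control spots were well above background on 11 arrays, and control replicate 2 had 50.1% and 169 outlier spots against 1 to 16 elsewhere; 0 spots were saturated. Each replicate number is 1 slide, which holds 1 array of each group, always at the same position, and an effect of that position cannot be told apart from the group. In a tissue sample, more cells of a type and more RNA per cell cannot be told apart either. Contractile smooth muscle markers were abundant in all groups, with mean log2 levels of 5.62 to 5.96 in controls and 5.33 to 5.52 on day 3, and 1 of 11 was called lower on day 3, beside 2.06% of all genes. Of 5 tested macrophage markers, 4 were called higher on each day, beside 4.84%, 1.9% and 1.96% of all genes on days 3, 5 and 7. The mean level of the markers was -1.31 to -0.57 in controls, and 0.49 to 0.72 on day 3. With normexp background MSR1 lost its day 5 and day 7 calls (limma adjusted p = 0.0507 and 0.122). Without slide 3, MSR1 was not called on days 3, 5 and 7 (0.102, 0.15 and 0.133), nor CD14 on days 3 and 5 (0.0519 and 0.056). Of 15 tested cell cycle genes, 12 were called higher on day 3, 8 on day 5 and 7 on day 7, beside the same shares of all genes, with mean levels of -3.99 to -3.57 in controls and -1.73 to -1.23 on day 3. Among them BUB1, BUB1B, NCAPG, RRM2, AURKA, AURKB and TTK were well above background on no control array. These entered the test only through the days, and the control level is partly background signal. With normexp background the day 3 calls of CCNB2, CCNA2, BUB1, RRM2 and AURKA were lost (limma adjusted p from 0.0634 to 0.724), as were several on days 5 and 7. Of 9 fibroblast and leptomeningeal markers, 1 was called higher and 3 lower on day 3, beside 4.84% and 2.06% of all genes, with mean levels of 2.98 to 3.67 in controls and 2.79 to 3.03 on day 3. LUM was the higher one, and PTGDS, SLC22A6 and SLC22A8 were the lower ones. The median log2 change of the 9 was positive, at 0.31, 0.48 and 0.76 on days 3, 5 and 7. Mean levels were 3.07 to 3.56 on day 5 and 3.46 to 3.74 on day 7. The part of these cell populations in the collagen, fibrillin and lysyl oxidase values was not tested.

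Type I collagen rose on every day. The COL1A1 probe read 2.97, 3.17 and 2.14 in the controls, 4.42, 4.20 and 4.34 on day 3, 4.46, 4.24 and 4.43 on day 5, and 4.31, 4.45 and 4.22 on day 7. All 9 arrays after the hemorrhage lay above all 3 controls, and the controls were spread more widely (SD 0.55) than any day (SD 0.11 to 0.12, n = 3). The log2 change was 1.56 on day 3 (2.95-fold, SE 0.23, limma adjusted p = 0.00254), 1.62 on day 5 (adjusted p = 0.00453) and 1.57 on day 7 (adjusted p = 0.00578). The day 3 change was 1.45, 1.03 and 2.20 on slides 1, 2 and 3, the last being the slide of the lowest control. When only the 2 groups compared were fitted, the day 5 and day 7 calls were lost (adjusted p = 0.0595 and 0.0517).

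COL1A2, the partner chain, on its probe A_04_P029967 read 7.25, 7.32 and 7.26 in the controls, 8.30, 8.39 and 8.20 on day 3, 8.72, 8.48 and 8.64 on day 5, and 8.63, 8.76 and 8.65 on day 7. The controls were tight (SD 0.04, n = 3), and every array of every day lay above them. The increase on the log2 scale was 1.02 on day 3 (2.03-fold, SE 0.13, limma adjusted p = 0.000957), 1.34 on day 5 (2.52-fold, adjusted p = 0.00105) and 1.40 on day 7 (2.65-fold, adjusted p = 0.000618). Within slides, the change was 0.94 to 1.07 on day 3. It was 1.16 to 1.47 on day 5, and 1.38 to 1.44 on day 7. By highest-mean probe, only COL1A1 and COL1A2 of the 6 genes were called by the F test over the 3 days (adjusted p = 0.0048 and 0.000657). That test called 3.29% of all genes. It also called the FBN1 probe A_04_P007976 (F test adjusted p = 0.00564) and the COL3A1 probe A_04_P029302 (0.0477). The highest-mean probes of FBN1 and COL3A1 were not called by it (0.174 and 0.0681).

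**Figure D2:**
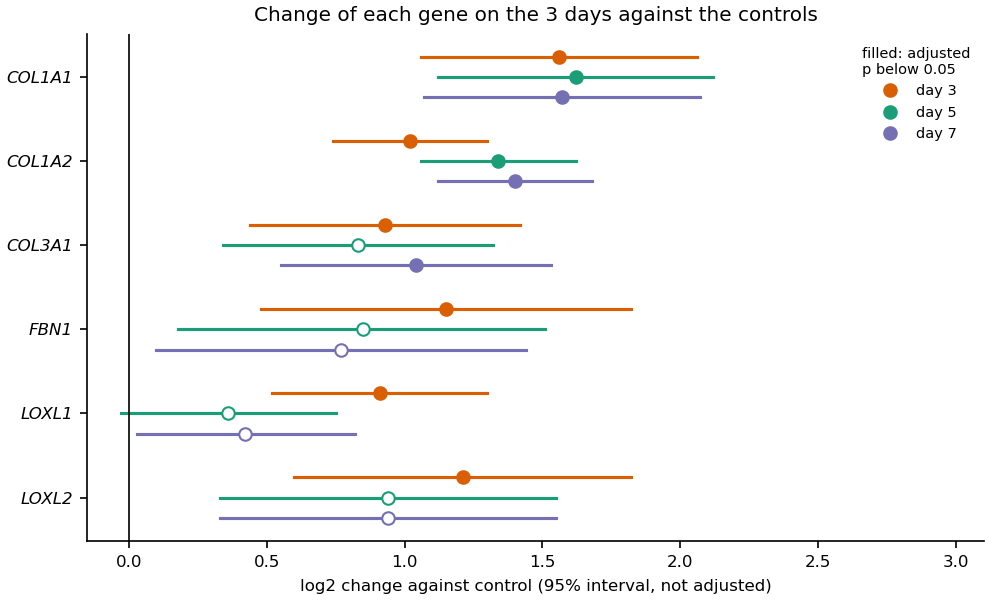
Log2 change against the 3 controls on days 3, 5 and 7 for each gene, with the unadjusted 95% interval of the fit; filled points have a limma adjusted p below 0.05. All day 3 points are filled, and COL1A1 and COL1A2 are filled on all 3 days.

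The 11 COL1A2 probes gave similar sizes of change but not the same calls. On days 3, 5 and 7 their log2 changes spanned 0.89 to 1.05, 1.24 to 1.45 and 1.17 to 1.46, and the days lay wholly above the controls for all 11. Of these probes 6 were called on day 3, 9 on day 5 and 7 on day 7; across all tested probes, 4.71%, 1.78% and 1.86% were called higher. The 5 that missed on day 3 were the overlapping set represented above by A_04_P033292, with changes of 0.90 to 1.02 and adjusted p from 0.0531 to 0.103. They share 56 bases and are in effect 1 measurement. Probes A_04_P005106 to A_04_P005109, all called on day 3, also overlap in a chain. The 11 probes thus cover only 4 separate stretches, and calls within a stretch are not independent. Probe A_04_P005106, near the 3′ end, rose by 1.01, 1.34 and 1.45 on days 3, 5 and 7 (limma adjusted p = 0.00144, 0.00106 and 0.000618). Probe A_04_P033287, from the triplet repeat, rose by 0.89, 1.24 and 1.45 on days 3, 5 and 7 (adjusted p = 0.0094, 0.0031 and 0.00137).

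The overlapping set differed from the other COL1A2 probes in how slide 3 read. On its 5 probes, replicate 3 of every group lay below the mean of replicates 1 and 2, by 0.81 to 0.97 in controls, and by 0.63 to 0.74, 0.43 to 0.55 and 0.52 to 0.61 on days 3, 5 and 7. On the 3 probes nearest to the 3′ end of the gene, in the order of the array's map positions, the mean of this difference over the groups was only -0.09 to -0.04, and on the next 2 it was -0.33 and -0.39. The order was not complete, since the farthest probe, A_04_P033287, had -0.19. FBN1 showed a like contrast, with -0.08 for the probe nearest to the 3′ end and -0.55 and -0.48 for the other two. Over all 26325 tested probes without a missing spot the median was 0.03, and the 10th and 90th percentiles were -0.35 and 0.42. On these 5 probes replicate 3 was lower in controls and on every day, and by more in the controls. Their day 3 change was 1.07 to 1.14 within slide 3, against 0.94 to 1.11 within slide 1 and 0.70 to 0.84 within slide 2. The cause of the slide difference was not tested.

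**Figure D3:**
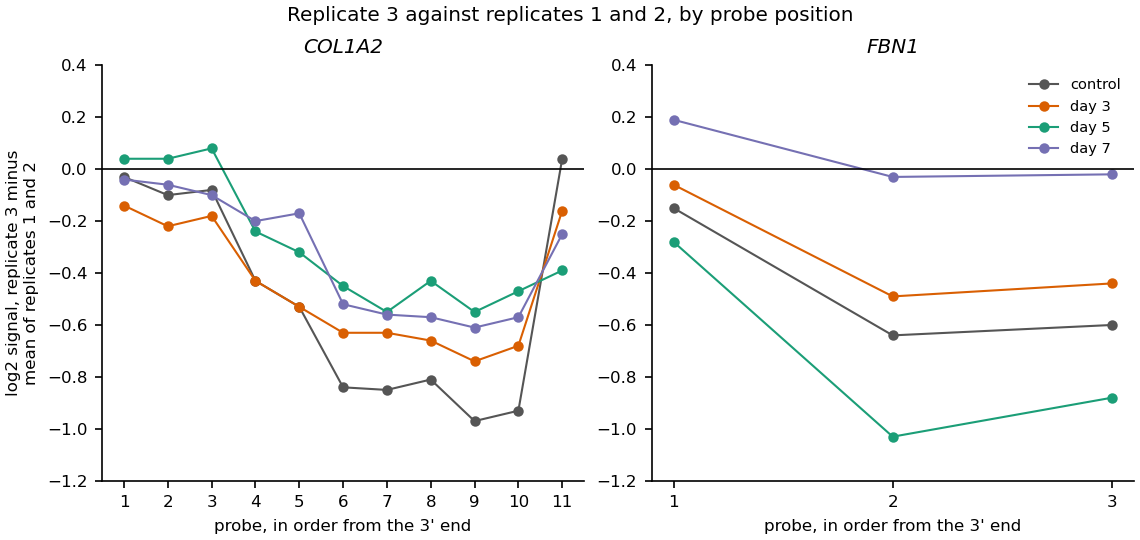
Log2 signal of replicate 3 minus the mean of replicates 1 and 2 in each group, for the COL1A2 and FBN1 probes in order from the 3′ end of the gene. COL1A2 probes 6 to 10 are the overlapping set and lie between -0.97 and -0.43; the 3 probes nearest to the 3′ end lie between -0.22 and 0.08.

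Type III collagen rose on day 3 and day 7 and did not pass the test on day 5; its control group was wide. COL3A1 read 6.79, 7.74 and 6.98 in the controls, 8.01, 8.27 and 8.01 on day 3, 8.11, 8.0 and 7.88 on day 5, and 8.24, 8.02 and 8.37 on day 7. Every array of the 3 days exceeded every control, but control replicate 2 came close to the lowest day 5 array. On the log2 scale the change was 0.93 on day 3 (1.90-fold, SE 0.22, limma adjusted p = 0.0329), 0.83 on day 5 (adjusted p = 0.098) and 1.04 on day 7 (2.05-fold, adjusted p = 0.0375). Within slides the day 3 change was 1.22, 0.53 and 1.03, and the day 7 change 1.45, 0.28 and 1.38.

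Control replicate 2 was the highest control on all 6 COL3A1 probes, as the map of all 24 probes shows. The log2 changes of these probes were 0.89 to 0.98, 0.74 to 0.92 and 0.91 to 1.1 on days 3, 5 and 7, and 4, 0 and 2 of the 6 were called. Because A_04_P099602 to A_04_P099605 overlap in a chain, the 6 probes cover only 3 separate stretches. On day 5 the arrays of A_04_P006131 and A_04_P099605 overlapped the controls, while those of the other 4 probes did not. Without control replicate 2 the day 5 change was 1.11 (adjusted p = 0.00981). The day 3 call was lost without control replicate 1 (0.109), control replicate 3 (0.0733) or day 3 replicate 1, 2 or 3 (0.0632, 0.108 and 0.0837, limma adjusted p), and the day 7 call without any 1 array other than control replicate 2 and day 5 replicate 3 (adjusted p up to 0.132). Both calls were also lost with quantile normalization (0.0844 and 0.104), the authors' table (0.0858 and 0.106), no filter on dim probes (0.0786 and 0.0949), only the 2 groups (0.126 and 0.136) and without slide 3 (0.146 and 0.135), and day 7 with normexp background (0.0533, limma adjusted p).

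**Figure D4:**
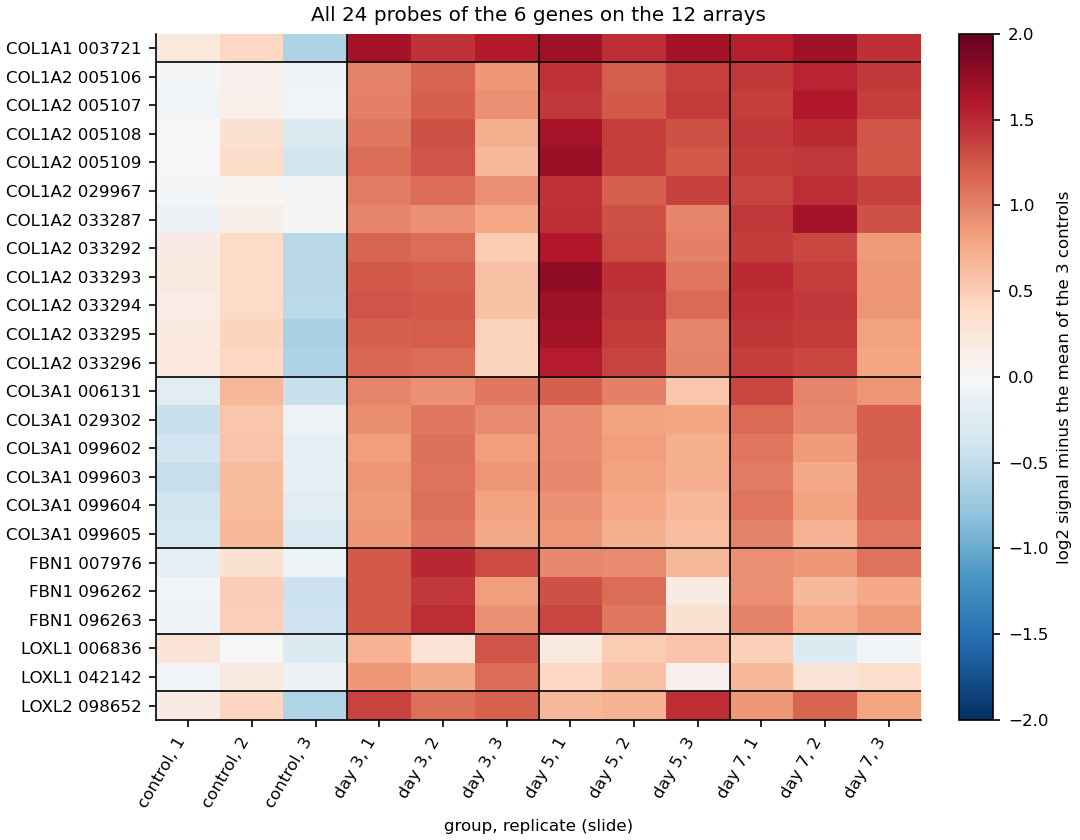
Log2 signal minus the mean of the 3 controls for all 24 probes (rows, named by gene and the end of the probe name) on the 12 arrays (columns, by group and replicate). Red is above and blue below the control mean; control replicate 2 is red on all COL3A1 rows, and on the 5 overlapping COL1A2 probes replicate 3 has the lowest value of its group in all 4 groups.

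Fibrillin 1 passed the test on day 3 with all 3 of its probes. The FBN1 probe with the highest mean read 2.31, 2.85 and 1.93 in the controls, 3.58, 3.78 and 3.19 on day 3, 3.64, 3.47 and 2.53 on day 5, and 3.28, 3.01 and 3.11 on day 7. Day 3 and day 7 lay wholly above the controls, whereas day 5 replicate 3 fell among them. The log2 change was 1.15 on day 3 (2.22-fold, SE 0.30, limma adjusted p = 0.0458), 0.85 on day 5 (adjusted p = 0.211) and 0.77 on day 7 (adjusted p = 0.218). The day 3 call was lost when any 1 of 9 arrays was left out: control replicates 1 and 3, all of day 3, day 5 replicate 2 and all of day 7 (adjusted p from 0.0594 to 0.144). It was also lost with quantile normalization (0.0973), the authors' table (0.0992), no filter on dim probes (0.101) and only the 2 groups (0.0745, limma adjusted p).

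A second FBN1 probe, A_04_P007976, the nearest to the 3′ end, was less scattered. It read 1.11, 1.60 and 1.21 in the controls, 2.52, 2.80 and 2.60 on day 3, 2.26, 2.24 and 1.97 on day 5, and 2.22, 2.16 and 2.38 on day 7. No day overlapped the controls. Its log2 change was 1.33 on day 3 (2.52-fold, limma adjusted p = 0.00094), 0.85 on day 5 (adjusted p = 0.0252) and 0.95 on day 7 (adjusted p = 0.0142). Its day 3 call held without each array in turn and under the 11 other settings. The day 5 call was lost without control replicate 1 or 3 or day 5 replicate 1 or 2 (adjusted p up to 0.0992) and with normexp background, no filter on dim probes, only the 2 groups and without slide 3 (0.123, 0.067, 0.141 and 0.0774); the day 7 call was lost without control replicate 1 or day 7 replicate 1 or 3 (adjusted p up to 0.0665), with only the 2 groups and without slide 3 (0.0703 and 0.0632). The third FBN1 probe, A_04_P096263, changed by 1.21, 0.90 and 0.86, called on day 3 only (adjusted p = 0.0278, 0.15 and 0.138).

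The cross-linking enzymes passed the test on day 3 only. LOXL1 read 2.92, 3.16 and 2.86 in the controls, 3.85, 3.73 and 4.10 on day 3, 3.39, 3.56 and 3.07 on day 5, and 3.65, 3.25 and 3.33 on day 7. Day 3 stood apart from the controls, and day 5 overlapped them. The log2 change was 0.91 on day 3 (1.88-fold, SE 0.18, limma adjusted p = 0.0132), 0.36 on day 5 (adjusted p = 0.402) and 0.42 on day 7 (adjusted p = 0.247). Without day 3 replicate 3 the day 3 change was 0.81 (limma adjusted p = 0.059), and without slide 3 it was 0.75 (0.0722). The other LOXL1 probe, A_04_P006836, was dim, being well above background on 2 of 3 controls, and its changes of 0.75, 0.42 and 0.05 were not called (adjusted p = 0.127, 0.529 and 0.948).

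LOXL2 read -0.53, -0.27 and -1.30 in the controls, 0.65, 0.40 and 0.48 on day 3, -0.04, 0.00 and 0.77 on day 5, and 0.17, 0.47 and 0.09 on day 7. All 9 later arrays exceeded the controls, and control replicate 3 was the lowest value. Relative to the controls, the log2 change was 1.21 on day 3 (2.31-fold, SE 0.28, limma adjusted p = 0.0269), 0.94 on day 5 (adjusted p = 0.13) and 0.94 on day 7 (adjusted p = 0.106). The day 3 call was lost without control replicate 1 (0.0548), control replicate 3 (0.0547) or day 3 replicate 1, 2 or 3 (0.0759, 0.059 and 0.0824, limma adjusted p), and with no filter on dim probes (0.0643) or only the 2 groups (0.0664). Counting all 6 genes, the arrays lay wholly above the controls for 6 on day 3, 4 on day 5 and 6 on day 7, beside 13.7%, 10.2% and 12.3% of all genes.

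Between days, no change of the 6 genes was called. limma called 0 of 6 genes in each of the 3 comparisons; in the comparison of day 7 with day 3 it called 0.0136% of all genes higher and 0.0955% lower, and the others 0% in each direction. From day 3 to day 7, COL1A2 changed by 0.38 (unadjusted 95% interval 0.10 to 0.66, limma adjusted p = 0.318), and all day 7 arrays lay above all day 3 arrays, as for 10.6% of all genes. These values are those of probe A_04_P029967. Over the 11 COL1A2 probes the change was 0.23 to 0.56, and day 7 lay wholly above day 3 on only 4 of them. LOXL1 went the other way, by -0.48 (interval -0.88 to -0.09, adjusted p = 0.366), and all day 7 arrays lay below day 3, as for 12.9% of all genes. On its dim probe A_04_P006836 the change was -0.7, and the arrays of day 7 and day 3 overlapped. COL1A1 changed by 0.01 (interval -0.49 to 0.51). The difference between the COL1A2 and LOXL1 changes was 0.87, and 0.54, 0.85 and 1.22 on slides 1 to 3. In an exact two-sided permutation test of this difference p was 0.1, the smallest that 3 against 3 allows, and 0.188 adjusted over the 15 pairs of genes, 8 of which reached 0.1.

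The 6 genes varied together over the 12 arrays to different degrees. Pearson's r over the 15 pairs ran from 0.469 for COL1A2 with LOXL1 to 0.919 for COL1A1 with COL1A2; the arrays share the group differences and slides, so these values are descriptions. The named genes most like the mean standardised profile of the 6 were DIAPH3 and NCAPG (both r = 0.961), LCP1 (0.954), CPXM1 (0.940), SGPL1, CD44 and PLTP (all 0.937) and RIGI (0.936), among 7296 genes compared over 12 arrays. DIAPH3, NCAPG and SGPL1 were not well above background on any control array. NCAPG is a condensin subunit of dividing cells, LCP1 an actin-bundling protein of leukocytes and CD44 a hyaluronan receptor.

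Related genes of the scaffold were listed by known function, but many of those listed could not be tested. Tested were 4 of 8 other fibrillar collagens, 2 of 3 other lysyl oxidases, 8 of 18 elastic fibre genes and 14 of 26 processing genes. Also tested were 13 of 20 fibril-organising, 9 of 13 breakdown and 11 of 15 profibrotic genes. No probe carried the name of LOXL3, ELN (elastin), BGN or SPARC, among others. Among 4 other fibrillar collagens measured, 0 were called on any day, with a median day 3 change of 0.40. COL5A1, which nucleates type I fibrils, changed by 0.47 on day 3 (adjusted p = 0.101), and COL5A3 by 2.51 (adjusted p = 0.0595), with 2 of its 3 control arrays well above background. Of 2 other lysyl oxidases, LOX itself changed by 0.38 on day 3 (adjusted p = 0.574). LOXL4 was well above background on no control array and was at least 1.07-fold higher on day 3 (limma adjusted p = 0.0379), a call lost without any 1 of 7 arrays (adjusted p up to 0.148): control replicates 2 and 3, all of day 3, and replicate 1 of day 5 and of day 7. The call was also lost with the slide as a block (0.0546), normexp background (0.79), array weights (0.0756), no filter on dim probes (0.0829), only the 2 groups (0.105) and without slide 3 (0.144, limma adjusted p). For this bound each control array counted at its detection limit (the dimmest signal that was well above background there) or at the probe's signal, whichever was greater.

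Of 8 elastic fibre genes other than FBN1, 4 were called lower and 1 higher on day 3, against 2.06% and 4.84% of all genes, with a median change of -0.72. MFAP5, a microfibril-associated protein that binds fibrillin, read -1.48, -1.11 and -1.29 in controls and -3.18, -3.81 and -4.09 on day 3. The day lay wholly below the controls, as for 11.4% of all genes, and MFAP5 fell by 2.40 (limma adjusted p = 0.0183). Only 1 of the 3 day 3 arrays was well above background for MFAP5, so the size of this fall is uncertain. LTBP4, which ties latent TGF-beta to microfibrils, fell by 1.47 (adjusted p = 0.0256), and FBN2, the second fibrillin, fell by 1.24 (adjusted p = 0.0246). FBLN5, an elastin-binding fibulin, fell by 0.95 (adjusted p = 0.0441), while EFEMP1, fibulin 3, rose by 1.06 (adjusted p = 0.0157). On days 5 and 7, 0 of the 8 were called, and the medians were -0.33 and -0.54. Each day 3 call was lost without control replicate 2 or without day 3 replicate 2, and all but EFEMP1 without day 3 replicate 3. Without control replicate 1, EFEMP1, LTBP4, FBN2 and FBLN5 were lost, and FBLN5 also without day 5 replicates 1, 2 or 3 or day 7 replicates 1 or 2 (adjusted p up to 0.0596, 0.107, 0.0963 and 0.168, and 0.0793 for MFAP5). With no filter on dim probes FBN2, LTBP4 and FBLN5 were lost (limma adjusted p = 0.0594, 0.0604 and 0.0995). LTBP4 and FBLN5 were also lost with only the 2 groups (0.105 and 0.11), and FBN2 and MFAP5 without slide 3 (0.0904 and 0.115).

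**Figure D5:**
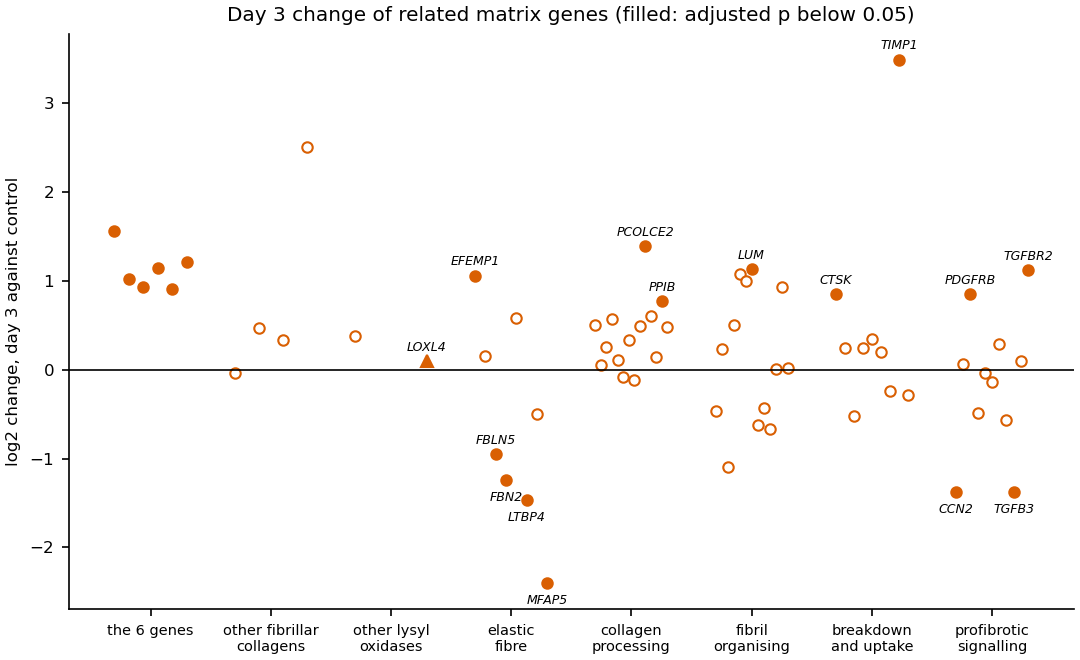
Log2 change on day 3 against controls for the 6 genes and for every tested gene of 7 lists of related function; filled symbols have a limma adjusted p below 0.05. The triangle for LOXL4 is a lower bound, and MFAP5 and TGFB3 were well above background on 1 of 3 day 3 arrays; the 6 genes lie between 0.91 and 1.56, and 4 of 8 elastic fibre genes are filled below 0.

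Among 14 collagen synthesis and processing genes, 2 were called higher on day 3 and 0 on days 5 and 7, beside 4.84%, 1.9% and 1.96% of all genes; the day 3 median was 0.41. PCOLCE2, an enhancer of procollagen C-proteinase, rose by 1.39 on day 3 (limma adjusted p = 0.0108), and the call held without each single array but not without slide 3 (adjusted p = 0.068). PPIB, a prolyl isomerase of procollagen folding, rose by 0.77 (adjusted p = 0.0243), a call lost without control replicate 1 or 3 or day 3 replicate 2 or 3 (adjusted p up to 0.101). The PPIB call was also lost with quantile normalization, the authors' table and no filter on dim probes (limma adjusted p = 0.0769, 0.0775 and 0.066). Fitting only the 2 groups or leaving out slide 3 ended it too (0.083 and 0.126). SERPINH1, the collagen chaperone HSP47, changed by 0.48 (adjusted p = 0.304). Of 13 fibril-organising genes, 1 was called higher on day 3, 0 on day 5 and 1 on day 7, beside the same shares of all genes. This was LUM, lumican, which rose by 1.13 on day 3 (adjusted p = 0.0172) and by 1.02 on day 7 (adjusted p = 0.0491). Its day 3 call was lost without control replicate 1 or 2 or day 3 replicate 3 (adjusted p up to 0.0648), and its day 7 call without any of 10 arrays (adjusted p up to 0.158). Fitting only the 2 groups ended both LUM calls (limma adjusted p = 0.0565 and 0.125). The day 7 call was also lost with normexp background, no filter on dim probes and outlier spots kept (0.0552, 0.117 and 0.0506).

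Among 9 genes of collagen breakdown and uptake, 2 were called higher on day 3, beside 4.84% of all genes. On each of days 5 and 7, 1 was called higher and 1 lower, beside 1.9% and 1.96% of all genes higher and 0.218% and 0.587% lower. TIMP1, an inhibitor of matrix metalloproteinases, read 3.68, 3.99 and 4.08 in controls, 6.98, 7.24 and 8.01 on day 3, 5.84, 5.19 and 5.49 on day 5, and 5.78, 5.24 and 5.19 on day 7. Its highest values were those of day 3, and no day overlapped the controls, with rises of 3.49, 1.59 and 1.48 (limma adjusted p = 7.74e-05, 0.0137 and 0.0202). MMP9, gelatinase B, read 0.09, 0.98 and 1.19 in controls, 0.22, 0.91 and 0.42 on day 3, -0.88, -1.15 and -0.82 on day 5, and -1.31, -1.33 and -2.32 on day 7. It overlapped the controls on day 3 (change -0.24, adjusted p = 0.74) and fell by 1.71 on day 5 (adjusted p = 0.0249) and 2.41 on day 7 (adjusted p = 0.00441). CTSK, the collagen-cleaving cathepsin K, rose by 0.85 on day 3 (adjusted p = 0.049), a call that survived the omission of only 1 of the 12 arrays (adjusted p up to 0.179). The CTSK call held under only 4 of the 11 other settings. The day 3 call of TIMP1 and the day 7 call of MMP9 held without each array. The day 5 call of TIMP1 was lost without control or day 5 replicate 1 and its day 7 call without control replicate 1 or 2 or day 7 replicate 1 or 3 (adjusted p up to 0.0611 and 0.0932). That of MMP9 on day 5 was lost without control replicate 2 or 3 or any day 5 array (adjusted p up to 0.087). Without slide 3, the day 5 calls of TIMP1 and MMP9 were lost (limma adjusted p = 0.0521 and 0.0811). With no filter on dim probes, TIMP1 was lost on day 7 and MMP9 on day 5 (0.052 and 0.0572). Fitting only the 2 groups also ended the day 5 call of MMP9 (0.0615).

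Of 11 profibrotic signalling genes, 2 were called higher and 2 lower on day 3, beside 4.84% and 2.06% of all genes, and 0 on days 5 and 7. TGFBR2, a TGF-beta receptor, rose by 1.12 (limma adjusted p = 0.0326) and PDGFRB, a PDGF receptor, by 0.85 (adjusted p = 0.046). TGFB3, a TGF-beta ligand, and CCN2, a matricellular TGF-beta target, each fell by 1.38 (adjusted p = 0.0263 and 0.0299). TGFB1 changed by 0.29 (adjusted p = 0.448). TGFBR2 and PDGFRB were well above background on 2 of 3 controls and TGFB3 on 1 of 3 day 3 arrays, and with normexp background their changes were 0.15, 0.13 and -0.46, none called (limma adjusted p = 0.775, 0.79 and 0.189). Without day 3 replicate 2 or day 3 replicate 3, none of these 4 calls remained. TGFBR2 was also lost without day 3 replicate 1 or control replicate 2, TGFB3 without control replicate 1 or 2, CCN2 without control replicate 1 or 3, and PDGFRB without 9 of the 12 arrays (adjusted p up to 0.119, 0.103, 0.119 and 0.144). None of the 4 calls remained with no filter on dim probes (limma adjusted p from 0.0626 to 0.106) or without slide 3 (0.0682 to 0.158). PDGFRB held under only 3 of 10 other settings.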

How the data were processed

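Total RNA was labelled with Cy3 and hybridised to 12 single-colour arrays, per the labels. The authors deposited scanner output from Agilent Feature Extraction 9.5.1.1, named in the submitters' processing notes; its processed signal is an intensity that is background-subtracted per the file headers. Also deposited were 0/1 flags per spot (other values), marking detection, outliers and saturation. The value table the authors supplied, an intensity of equal median (27.0) on all arrays, served as an alternative.

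Control spots were left out, outlier-flagged spots set to missing, log2 processed signals taken relative to each array's 75th percentile, and spots of a probe averaged. Probes well above background on all 3 arrays of a group were tested (26434 of 43623). Names came from the array and a RefSeq table (mOryCun1.1): 22866 probes had 1 gene, 284 several and 20473 none. No coordinates are given, since the array names no build.

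All 12 arrays entered 1 limma 3.58.1 fit (R 4.3.3) without a block, two-sided, with Benjamini-Hochberg adjustment over probes. On simulated data for day 3, with 26325 probes, 40% of 2-fold and 82% of 4-fold changes were recovered. Far fewer probes were changed in the simulation than were called on day 3, so these rates need not hold for the data. Named were all member probes, up to 4 called genes per list with the largest change (otherwise the 2 with the smallest p), and the 8 genes most like the members. LOX, SERPINH1, TGFB1, FBLN5 and the single cell type and cell cycle markers were added after their values were seen. Members and lists were chosen with earlier results of these data known.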

Additional observations from a re-analysis of the deposited data

Results flagged for a closer look

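Among the 6 genes and the genes named from the lists of related function, 2 differed between days by the limma test of the difference itself. MMP9 was lower on day 7 than on day 3, with a log2 change of -2.17 (limma adjusted p = 0.0467). TIMP1 was lower on day 7 than on day 3 as well, with a log2 change of -2.00 (adjusted p = 0.045). In both genes all 3 day 7 arrays lay below all 3 day 3 arrays, as for 12.9% of all genes. Both adjusted p values lay just below 0.05, and their stability without single arrays is not given here. None of the 6 collagen, fibrillin and lysyl oxidase genes differed between days by this test.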

How the results depend on the processing

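Over 18 changes (6 genes, 3 days) and 432 alternative values, 0 changed sign, 378 kept their side of the threshold, 50 lost the call and 4 gained it. Only called changes could lose a call, and the 378 include values of changes that were never called. Quantile normalization and the authors' table gave nearly the same values, so the 24 alternatives of a change are not independent. The call was lost most often for COL3A1 on day 7 (16 of 24 alternatives), FBN1 on day 3 (13) and COL3A1 on day 3 (10). The number of genes called on day 3, 6 of 6, was 3 without the filter on dim probes and 3 with only the 2 groups fitted, and 4 with quantile normalization and with the authors' table. On day 5, 2 became 4 with array weights and 1 with only the 2 groups; on day 7, 3 became 1 with only the 2 groups. The F test count, 2, became 4 with median scaling and 5 with array weights. Leaving out 1 array gave 2 to 6 on day 3, 2 to 3 on day 5, 2 to 3 on day 7, 2 to 3 by the F test and 0 between days. The cause of these shifts was not tested. Without all of slide 3, chosen after seeing the data, the counts were 4, 2 and 2. The day 3 calls of COL1A1 and COL1A2 held in all 24 alternatives.

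With the replicate number (slide) as a block, the counts were 6, 2 and 3 on days 3, 5 and 7, 2 by the F test and 0 between days; of the other genes named as called, LOXL4 lost its call (adjusted p = 0.0546). Same-numbered arrays had correlations above 0.1 in 10 of 18 pairs (-0.153 to 0.387), and 10 of 12 arrays correlated best with their own number. The number marks a shared slide; whether it also marks anything shared by the samples is not stated. Signal near background limits LOXL4, MFAP5, COL5A3, TGFB3, TGFBR2, PDGFRB, the macrophage marker MSR1 and the second LOXL1 probe. The same holds for the cell cycle genes BUB1, BUB1B, NCAPG, RRM2, AURKA, AURKB and TTK.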
